A study of Mus musculus with 8 samples.

Results

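The genes of 3 scaffold families of the postsynaptic density were followed in cultured hippocampal neurons of wild-type mice. They are 4 membrane-associated guanylate kinase (MAGUK) genes (*Dlg1*, *Dlg2*, *Dlg3* and *Dlg4*), 3 Shank genes (*Shank1*, *Shank2* and *Shank3*) and 3 genes of the SAPAP family (*Dlgap1*, *Dlgap2* and *Dlgap3*), 10 of the 45706 genes in the deposited table. The genes were chosen by name and not by their values here. Neurons were taken from C57/Bl6 wild-type mice at embryonic day 18, treated with an agent against glial overgrowth after 3 days, and collected at 12 to 14 days in vitro. Both groups share this genotype and handling. The control group of 4 wells received vehicle (H2O), and the other 4 wells received 1 µM melanin-concentrating hormone (MCH) peptide, both for 4 h. By the study's methods the wells come from 2 independent cultures, each with 2 wells of either treatment, but the sources used here do not tie replicate numbers to cultures. *P* values therefore measure the spread between wells, part of which may be technical. The comparison asks which transcripts change when hippocampal neurons receive MCH, a hypothalamic neuropeptide.

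The postsynaptic density is the protein layer under the membrane of an excitatory synapse. In it, MAGUK proteins hold glutamate receptors, potassium channels and adhesion molecules through their PDZ domains, SAPAP proteins bind the guanylate kinase domain of the MAGUKs, and Shank proteins bind the tail of the SAPAPs and link them to Homer and to actin. PSD-95, the product of *Dlg4*, is the best known of them and sets how many AMPA receptors a synapse can hold. Its place at the membrane depends on palmitate that is added to a pair of cysteines at its start and removed again as activity changes.

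The start of the coding sequence is shown for the transcript that held most reads of each MAGUK gene and for the other main transcript of *Dlg4*, since *Dlg4* transcripts differ there. Each line gives the first 12 codons, 5′ to 3′, with cysteine codons in capitals.

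Dlg4-203: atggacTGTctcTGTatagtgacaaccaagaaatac
Dlg4-201: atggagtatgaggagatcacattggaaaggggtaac
Dlg2-204: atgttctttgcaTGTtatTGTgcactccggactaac
Dlg3-201: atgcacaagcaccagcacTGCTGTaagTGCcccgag
Dlg1-206: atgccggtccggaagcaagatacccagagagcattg

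The sequences and positions are those of GENCODE vM21 on GRCm38, all on the plus strand. The 12 codons of Dlg4-203 lie in 2 coding exons within chr11:70018920-70026928, and cysteine codons stand at positions 3 and 5 counted from the start codon. Those of Dlg4-201 lie in 2 exons within chr11:70030625-70030872 and hold no cysteine codon. All 664 coding codons of Dlg4-201 are the same as the end of the 724 codons of Dlg4-203, from codon 61 on, so the transcripts differ in coding sequence by the 60 codons that carry the cysteines of the palmitoylated start. Dlg2-204 has cysteine codons at positions 5 and 7 (chr7:91091007-91091042, 1 exon), and Dlg3-201 has them at 7, 8 and 10 (chrX:100768072-100768107, 1 exon). Dlg1-206 has none among its first 12 codons, which lie in 2 exons within chr16:31664852-31665591.

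The end of the coding sequence is shown for the SAPAP genes, because the last 4 codons, in capitals, encode the tail that the PDZ domain of Shank proteins binds. Each line gives the last 10 codons before the stop codon.

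Dlgap1-211: atctacatccccgaggcgCAGACCCGGCTC
Dlgap2-203: atctacatccctgaggccCAGACGCGGCTC
Dlgap3-201: atctacatccccgaggccCAGACCAGGCTG
Dlgap1-210: aaaccctgcacaaacgctGGACAGTCTAAA

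The leading transcripts of the 3 genes end in different bases that encode the same 4 residues (chr17:70818202-70818231, chr8:14846676-14846705 and chr4:127236336-127236365, 1 exon each). Dlgap1-210, a lesser transcript of *Dlgap1*, ends in another exon (chr17:70815380-70815409) with 4 codons that encode other residues.

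Library totals ranged from 26083936 to 31844861 estimated counts, of which the 10 scaffold genes held 0.324 to 0.347%. Their own counts ran from 1617 to 29770 per well, and all 10 passed the filter on low counts among 14962 genes tested. All 10 neuron markers examined were expressed, with a sum of 8352 to 9213 CPM, the usual count relative to library size, here with TMM factors to correct for library composition. The microglia markers *Tmem119* and *P2ry12* had 0 to 3 and 0 to 7 counts. The first principal component of deviations from the treatment means carried 59.8% of their variance and separated replicates 1 and 2 from replicates 3 and 4 of both treatments, called the sides below. Astrocyte markers, 10 of 10 tested, summed to 1148 to 1262 CPM in the wells of replicates 1 and 2 and to 2501 to 2850 CPM in those of replicates 3 and 4. In such bulk wells, fewer cells of a type and less RNA per cell cannot be told apart.

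*Dlg4* stood far above the other scaffold genes. Levels of different genes were compared per length, as TPM summed over the transcripts of a gene and averaged over the 8 wells. *Dlg4* reached 838 ± 39.4 TPM (SD, n = 8), rank 116 of 14880 genes, and its lowest well (790 TPM) was above the highest well of any other scaffold. *Dlg2* (PSD-93) followed at 204 ± 8.06 TPM, then *Dlgap1* at 184 ± 13.3 TPM and *Dlgap3* at 157 ± 7.69 TPM. The ranges of *Dlg2* and *Dlgap1* overlapped, as did those of *Dlgap1* and *Dlgap3*.

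A middle group held *Shank1* at 90.3 ± 9.89 TPM, *Shank3* at 80.8 ± 3.09 TPM and *Dlg3* (SAP102) at 72.8 ± 5.68 TPM, each overlapping its neighbour. All wells of this group lay below those of *Dlgap3* and above those of *Shank2*, which had 41.5 ± 2.34 TPM. *Dlg1* (SAP97) at 34.4 ± 3.00 TPM and *Dlgap2* at 33.5 ± 4.93 TPM closed the order, and *Dlg1* was the higher of this last pair in only 4 of 8 wells.

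The TPM of *Dlg4* rested in part on very short transcripts, as did its rank of 116, which was not computed without them. Of its summed TPM, 40.0% sat on transcripts under 1000 bases, and 32.9% on Dlg4-211 alone, a transcript of 404 bases that held 2.64% of the reads of the gene. Counting transcripts of at least 1000 bases only, an alternative chosen after seeing the data, *Dlg4* had 503 ± 9.52 TPM and was still 2.59 times as high as *Dlg2*, against 4.11 times with all transcripts. Short transcripts also held 25.6% of the TPM of *Shank3*, 18.6% of that of *Shank1* and 15.4% of that of *Dlg3*. Without them *Dlg3* (61.6 ± 1.31 TPM) and *Shank3* (60.1 ± 3.04 TPM) changed places, with ranges that overlapped, and no other scaffold changed rank.

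**Figure D1:**
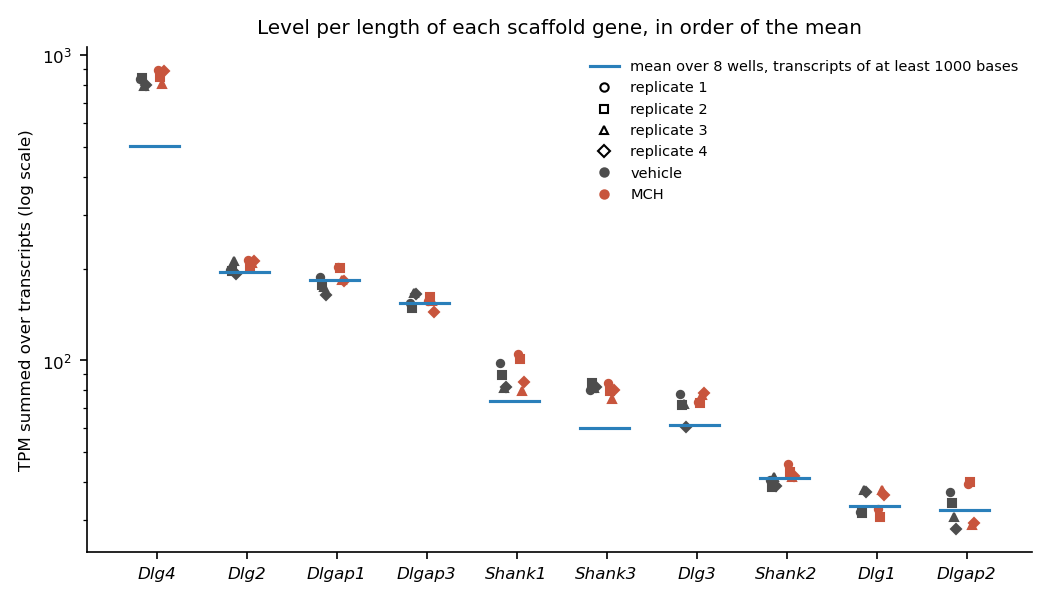
TPM summed over the transcripts of each scaffold gene, on a log axis, with 1 point per well (grey, vehicle; red, MCH; symbol, replicate number) and a blue line at the mean over 8 wells for transcripts of at least 1000 bases. *Dlg4* lies between 790 and 895 TPM with all transcripts and at a mean of 503 TPM without the short ones, and the other 9 genes lie between 28.0 and 214 TPM.

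None of the 10 scaffold genes changed with MCH by the test across all genes, and every log2 fold change lay within 0.1 of 0. With the quasi-likelihood test in edgeR and Benjamini–Hochberg adjustment over 14962 genes, 0 of 10 passed at an adjusted *P* of 0.05, where 0.234% of all genes passed. An unadjusted *P* under 0.05 was found for 0 of 10, against 8.5% of all genes. DESeq2 passed 0 of 10 scaffold genes and 1.14% of all genes, and gave an unadjusted *P* under 0.05 to 0 of 10 and to 7.59% of all genes. The log2 fold change of MCH over vehicle was above 0 for 6 scaffold genes and below 0 for 4, with a median of 0.034 against −0.0027 over all genes tested, of which 49.0% lay above 0. A fold change within 0.1 of 0 was found for 62.9% of all genes. Wells of the treatments overlapped for every scaffold gene, whereas they did not overlap for 6.04% of all genes.

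*Dlg4*, which encodes PSD-95, had 958, 997, 926 and 938 CPM in vehicle-treated replicates 1 to 4 and 951, 949, 916 and 923 CPM in MCH-treated replicates 1 to 4. No MCH-treated well reached the higher pair of vehicle-treated wells. MCH-treated replicates 1 and 2 lay between that pair and the lower pair, and MCH-treated replicates 3 and 4 lay below the lower pair. The log2 fold change was −0.031 (SE 0.035, 95% interval −0.11 to 0.048), with an adjusted *P* of 0.916 by the quasi-likelihood test in edgeR with Benjamini–Hochberg adjustment. *Dlg2* encodes PSD-93, a close relative that also binds NMDA receptors and potassium channels. It had 520, 513, 535 and 497 CPM with vehicle and 557, 529, 524 and 534 CPM with MCH. Only the highest MCH-treated well lay above all vehicle-treated wells, and the log2 fold change was 0.054 (SE 0.036, 95% interval −0.027 to 0.14).

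*Dlg3* encodes SAP102, a MAGUK prominent in young neurons, and was the steadiest gene of all 10, with a coefficient of variation of 1.11% among vehicle-treated wells. Its values were 170, 171, 170 and 167 CPM with vehicle and 166, 172, 173 and 174 CPM with MCH. The log2 fold change was 0.014 (SE 0.031, 95% interval −0.055 to 0.084). *Dlg1* encodes SAP97, which carries AMPA receptors on their way to the membrane. It had 69.6, 70.02, 77.3 and 80.9 CPM with vehicle and 66.9, 66.6, 81.0 and 75.7 CPM with MCH. In both treatments replicates 3 and 4 were the higher wells, and the log2 fold change was −0.038 (SE 0.076, 95% interval −0.21 to 0.13).

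Shank proteins form the deeper layer of the density. *Shank1* had 306, 317, 305 and 278 CPM with vehicle and 381, 351, 289 and 264 CPM with MCH. MCH-treated replicates 1 and 2 were above all vehicle-treated wells, and replicate 4 was below them. The SD was 16.4 CPM in the vehicle group and 54.2 CPM in the MCH group, a difference in spread that was not tested. The log2 fold change was 0.091 (SE 0.11, 95% interval −0.16 to 0.34), and it was 0.0022 without MCH replicate 1 and 0.18 without MCH replicate 4. *Shank2* had 177, 169, 176 and 168 CPM with vehicle and 195, 182, 177 and 176 CPM with MCH. Its ranges overlapped by less than 1 CPM, and the log2 fold change of 0.082 (SE 0.042, 95% interval −0.012 to 0.18) had the lowest adjusted *P* of the 10 genes, 0.656 by the quasi-likelihood test in edgeR with Benjamini–Hochberg adjustment. *Shank3* had 246, 261, 256 and 254 CPM with vehicle and 263, 252, 246 and 222 CPM with MCH. Replicate 4 with MCH was its lowest well, and the log2 fold change was −0.050 (SE 0.051, 95% interval −0.17 to 0.065).

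SAPAP proteins join the MAGUKs to the Shanks. *Dlgap1* had 505, 492, 481 and 460 CPM with vehicle and 544, 546, 492 and 479 CPM with MCH. Replicates 1 and 2 with MCH were above all vehicle-treated wells and the other two were among them, and the log2 fold change was 0.089 (SE 0.053, 95% interval −0.030 to 0.21). *Dlgap2*, the lowest of the 10 genes per length, had 77.4, 77.1, 66.0 and 60.1 CPM with vehicle and 86.9, 82.9, 62.7 and 63.7 CPM with MCH. It had the widest interval of the 10 genes, with a log2 fold change of 0.079 (SE 0.13, 95% interval −0.22 to 0.38). *Dlgap3*, whose product is abundant in the striatum, had 299, 314, 326 and 341 CPM with vehicle and 320, 330, 319 and 290 CPM with MCH. Its MCH-treated wells reached below but not above the range of the vehicle-treated ones, and the log2 fold change was −0.024 (SE 0.054, 95% interval −0.14 to 0.096).

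Over the 10 genes, 95% intervals ran from −0.22 to 0.38 on the log2 scale. In two-sided exact permutation tests of log2 CPM over the 70 assignments of wells, unadjusted *P* values ran from 0.0857 for *Shank2* to 0.657, with a smallest possible value of 0.0286. Compared within pairs of the same replicate number, *Dlgap1* (0.034 to 0.15 on the log2 scale) and *Shank2* (0.0047 to 0.14) were higher with MCH in 4 of 4 pairs, and *Dlg4* (−0.071 to −0.011) was lower in 4 of 4. The wells of such a pair share their side (replicates 1 and 2, or 3 and 4), but the values show no closer match by number. A single direction in all 4 pairs was found for 3 of 10 scaffold genes and for 25.4% of all genes. An exact permutation test within pairs was added after seeing the data. In this permutation test these 3 genes had a *P* of 0.125, the smallest that its 16 assignments can give, so it could not pass. The pairs were compared by CPM, and for *Dlg4* the direction depended on the measure. By TPM, *Dlg4* had 833, 844, 790 and 800 with vehicle and 895, 846, 806 and 891 with MCH in replicates 1 to 4. Its mean log2 difference in TPM was 0.072, with an unadjusted two-sided exact permutation *P* of 0.114. With the sides as a block in edgeR (batch block), 4.46% of all genes and 0 of 10 scaffold genes passed, and an unadjusted *P* under 0.05 was found for 2 of 10 against 18.2% of all genes. The intervals of this pair were 0.033 to 0.14 for *Dlgap1*, with an adjusted *P* of 0.0627 by the quasi-likelihood test in edgeR with Benjamini–Hochberg adjustment, and 0.014 to 0.15 for *Shank2*, with an adjusted *P* of 0.172 by the same test. With the replicate number as a block (replicate block), 3.98% of all genes (596) passed and again 0 of 10 scaffold genes.

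**Figure D2:**
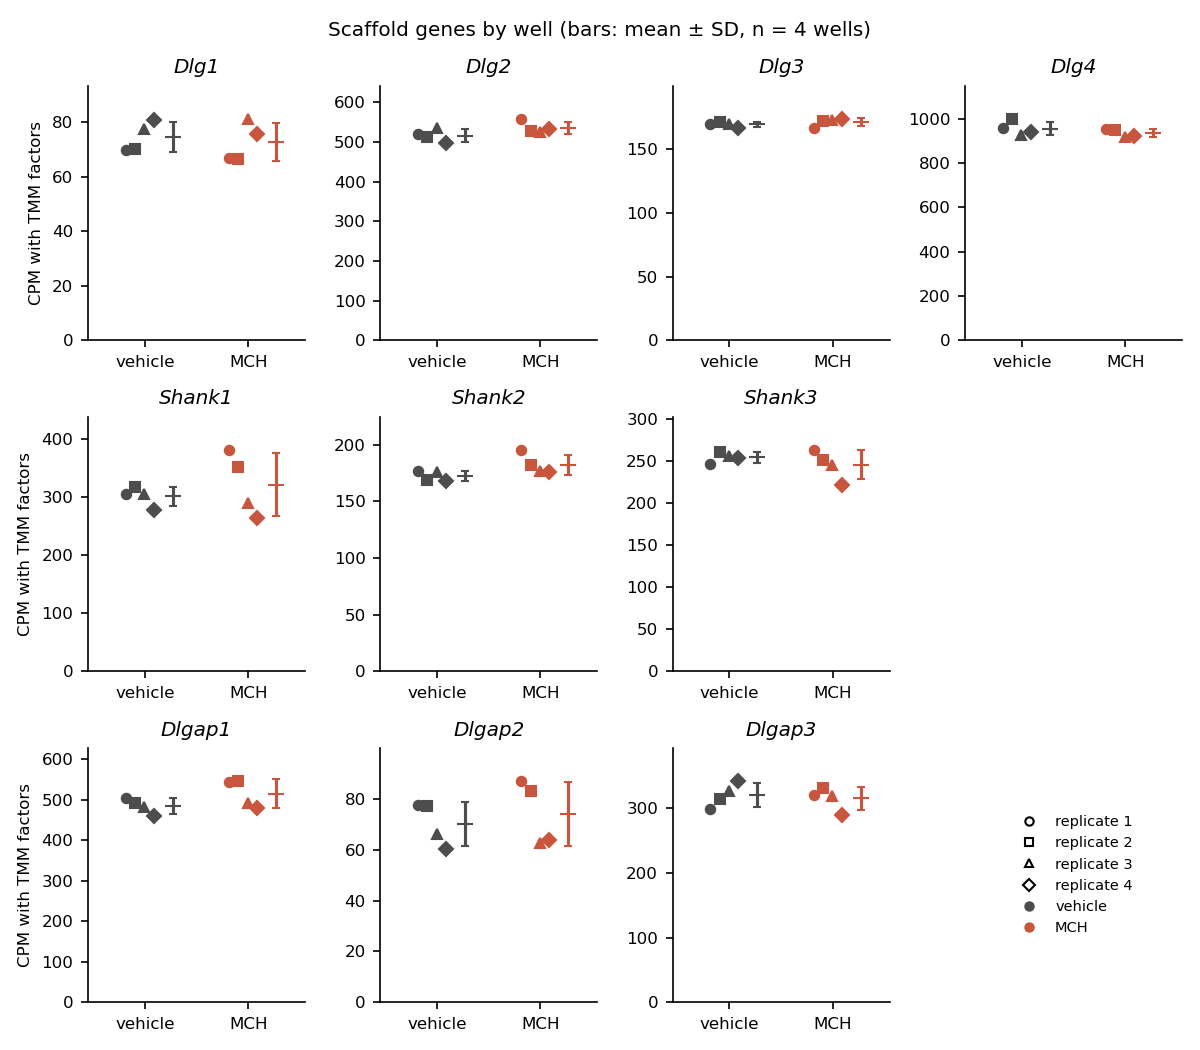
CPM with TMM factors of each scaffold gene by well, on axes from 0, with 1 point per well (grey, vehicle; red, MCH; symbol, replicate number) and the mean ± SD of 4 wells beside them. The treatments overlap in all 10 genes. Over both treatments, wells of the sides do not overlap for 4 of the 10 genes, beside 29.5% of all genes. Among the MCH-treated wells, the log2 difference between the sides is largest for *Dlgap2*, *Shank1* and *Dlg1*.

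For scale, transcripts that follow neuronal activity were lower in the same wells. They were chosen for this with their fall already known. *Homer1*, which encodes the Homer proteins that bind Shank, averaged 118 ± 5.77 CPM in vehicle-treated and 96.6 ± 4.14 CPM in MCH-treated wells (SD, n = 4). It fell by 0.30 on the log2 scale (95% interval −0.40 to −0.19), with an adjusted *P* of 0.0488 by the quasi-likelihood test in edgeR with Benjamini–Hochberg adjustment. *Arc*, a regulator of AMPA receptor removal, fell by 0.59 on the log2 scale (95% interval −0.71 to −0.47), and *Fos*, an immediate early transcription factor, by 0.91 (95% interval −1.1 to −0.72), each with an adjusted *P* of 0.00492 by the same edgeR test with Benjamini–Hochberg adjustment.

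The amount of *Homer1* RNA relative to each scaffold gene was therefore compared within wells. The log2 ratio of *Homer1* to *Dlg4* was −3.01 ± 0.044 with vehicle and −3.28 ± 0.039 with MCH (SD, n = 4), a difference of −0.26. Such ratios did not overlap between treatments for 9 of the 10 scaffold genes, nor for 51.3% of all genes, with differences from −0.38 for *Dlgap1* to −0.24 for *Shank3* and a *P* of 0.0286 (adjusted 0.0301 over 20 ratios) in two-sided exact permutation tests, the smallest they can give. The ratio to *Dlg1* overlapped, with a difference of −0.26 and an exact permutation *P* of 0.143. Ratios of *Arc* did not overlap for any of the 10, nor for 75.7% of all genes, with differences from −0.68 to −0.54. Since these genes were picked for their fall, the ratios show its size beside the scaffolds, add no independent test and set the scaffolds apart from no other gene.

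**Figure D3:**
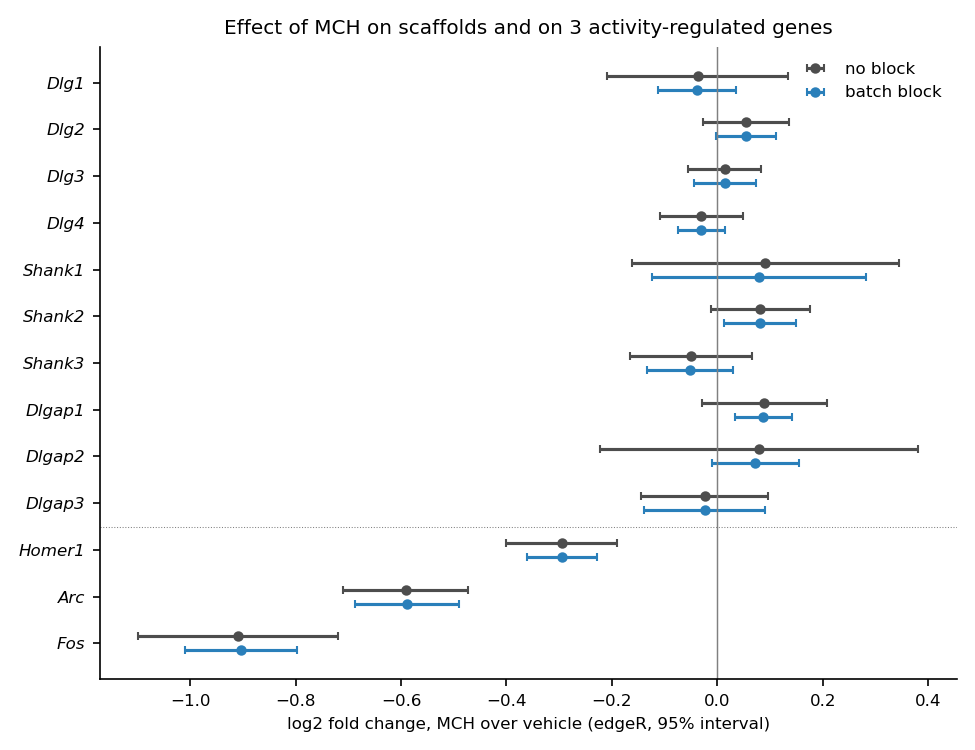
Log2 fold change of MCH over vehicle with its 95% interval from edgeR, without a block (grey) and with the sides as a block (blue), for the 10 scaffold genes and, under the dotted line, 3 activity-regulated genes. All scaffold points lie within 0.1 of 0, whereas the points of *Homer1*, *Arc* and *Fos* lie at −0.30, −0.59 and −0.91.

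Several scaffold genes had different levels in replicates 1 and 2 and in replicates 3 and 4. Since the sides were read from the counts, these values are a description with no test. Wells of the sides did not overlap for 4 of 10 scaffold genes, where 29.5% of all genes did not. *Dlgap2* was lower in replicates 3 and 4 by 0.29 (log2 CPM) with vehicle and by 0.43 with MCH, and *Shank1* by 0.095 and 0.41. *Dlg4* was lower there by 0.068 and 0.047. *Dlg1* went the other way and was higher in replicates 3 and 4, by 0.18 with vehicle and 0.23 with MCH.

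Sums of cell type markers did not overlap between the sides, except for microglia markers. Those summed to 25.4 to 29.9 CPM in replicates 1 and 2 and to 29.6 to 38.9 CPM in replicates 3 and 4. Neuron markers summed to 9139 to 9213 CPM in replicates 1 and 2 and to 8352 to 8488 CPM in replicates 3 and 4, and inhibitory neuron markers (10 of 10 tested) to 2766 to 3013 and to 2240 to 2514 CPM. Oligodendrocyte lineage markers (7 of 10 tested) summed to between 68.3 and 79.0 CPM in replicates 1 and 2 and between 147 and 170 CPM in replicates 3 and 4. Fibroblast and vessel markers (9 of 10 tested) summed to between 19.9 and 26.4 CPM and between 57.0 and 63.4 CPM, the same order as for the astrocyte markers above. Among the oligodendrocyte lineage markers *Olig1* ranged most widely, from 22.9 to 101 CPM. *Mbp* had 29.9 to 39.2 CPM, above *Olig1* where that was lowest, and *Sox10* and *Mog* were at 0 in all wells. The part of these cell types in the differences of the scaffold genes between sides was not tested. Between treatments, no marker gene passed without a block. Inhibitory neuron markers lay below 0 with MCH for 9 of 10 (median −0.094). With the batch block 2 of the 10 passed, beside 4.46% of all genes, both lower, *Gad1* (−0.097) and *Vip* (−0.23). Astrocyte markers lay above 0 for 10 of 10 (median 0.057), neuron markers for 3 of 10 (median −0.023) and microglia markers for 3 of the 7 tested (median −0.0072). Oligodendrocyte lineage markers did so for 3 of the 7 tested (median −0.084). Fibroblast and vessel markers did so for 2 of the 9 tested (median −0.19). No marker of these other types passed with either fit. The part of cell composition in the differences between treatments was not tested.

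Within each side, the difference of MCH and vehicle was uneven for some genes. *Shank1* was higher with MCH by 0.23 (mean log2 CPM, 2 wells a group) in replicates 1 and 2 and lower, at −0.079, in replicates 3 and 4. *Dlgap3* went from 0.086 to −0.13 and *Shank3* from 0.021 to −0.13. *Dlgap1* (0.13 and 0.045), *Shank2* (0.12 and 0.036), *Dlg2* (0.072 and 0.036) and *Dlgap2* (0.14 and 0.0055) were above 0 on both sides, and *Dlg4* (−0.041 and −0.020) and *Dlg1* (−0.065 and −0.014) were below 0 on both. *Dlg3* was −0.011 and 0.040.

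A term for treatment by side was fitted after these values had been seen. It passed for 0 of 10 scaffold genes and for 0.0267% of all genes. An unadjusted *P* under 0.05 was found for 3 of 10, *Shank1*, *Shank3* and *Dlgap3*, and for 7.6% of all genes. For *Shank1* the effect in replicates 3 and 4 was lower than in replicates 1 and 2 by 0.31 on the log2 scale (95% interval of the difference −0.48 to −0.14), with an adjusted *P* of 0.307 by the quasi-likelihood test in edgeR with Benjamini–Hochberg adjustment. For *Dlgap3* the difference was −0.22 (95% interval −0.35 to −0.085), with an adjusted *P* of 0.381 by the same edgeR test with Benjamini–Hochberg correction.

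**Figure D4:**
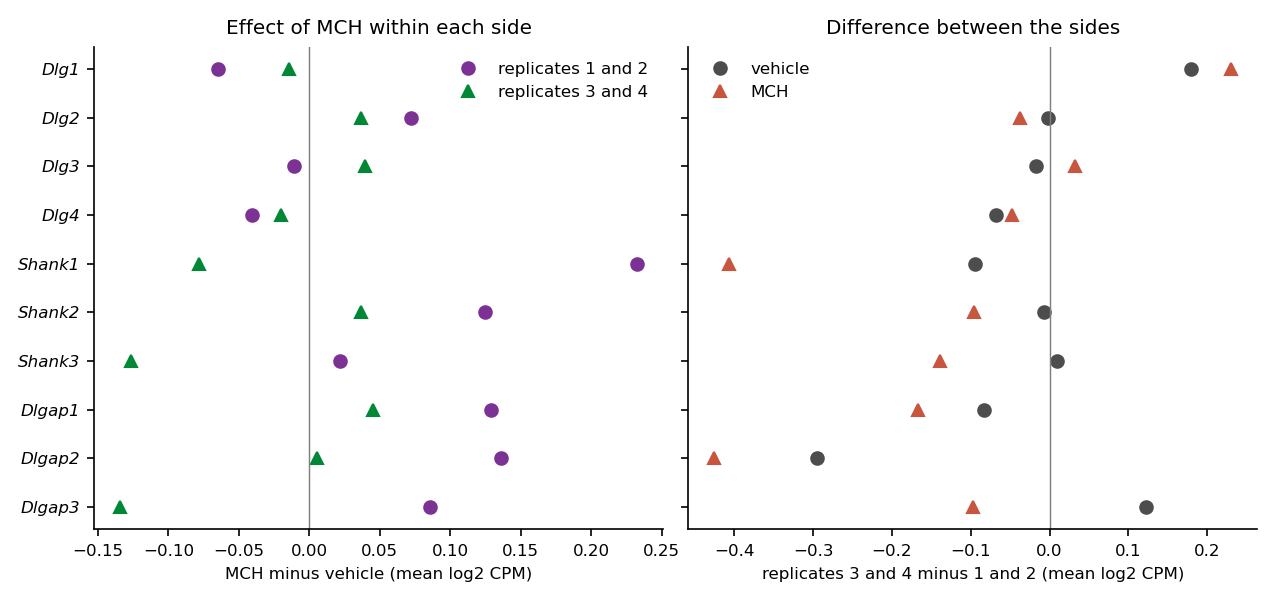
Left, the difference of MCH and vehicle in mean log2 CPM within replicates 1 and 2 (circles) and within replicates 3 and 4 (triangles). Right, the difference of replicates 3 and 4 from replicates 1 and 2 within vehicle (circles) and MCH (triangles). *Shank1* lies at 0.23 and −0.079 on the left, and *Dlg1* is the only gene of the 4 whose sides do not overlap that lies above 0 on the right.

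The scaffold genes had 93 transcripts in the deposited tables, of which 23 held at least 10% of the reads of their gene on average. How reads that fit several transcripts are divided is an estimate of the quantification. With the quasi-likelihood test in edgeR and Benjamini–Hochberg adjustment, 0 of the 60 scaffold transcripts tested passed, and 3 had an unadjusted *P* under 0.05. Among all 33527 transcripts tested 0.0% passed, none of them, and 1476 (4.4%) had an unadjusted *P* under 0.05. With the batch block 0.0179% of all transcripts and 0 scaffold transcripts passed.

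The forms of *Dlg4* with and without the palmitoylated start shown above held similar shares of its reads. Dlg4-201, which lacks the cysteine codons, held 52.2, 47.8, 53.4 and 52.9% of the reads of *Dlg4* with vehicle and 47.6, 50.4, 47.7 and 47.4% with MCH. Dlg4-203, which has them, held 44.3, 48.5, 42.7 and 43.7% with vehicle and 48.2, 45.7, 48.7 and 48.3% with MCH. Dlg4-201 had the higher share with vehicle in replicates 1, 3 and 4 and with MCH in replicate 2. The share of Dlg4-201 was 51.6 ± 2.56% with vehicle and 48.3 ± 1.42% with MCH (SD, n = 4), with a two-sided exact permutation *P* of 0.0571 (adjusted 0.286 over the 10 leading transcripts). The log2 fold change of Dlg4-201 was −0.13 (95% interval −0.21 to −0.042), with an unadjusted *P* of 0.00895 and an adjusted *P* of 0.947 by the quasi-likelihood test in edgeR with Benjamini–Hochberg adjustment.

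*Dlg1* was the only scaffold whose leading transcript had shares that did not overlap between treatments, 1 of 10 leading transcripts against 2.5% over all genes tested with more than 1 transcript. Among transcripts with at least 10% of the reads it was 1 of 23 against 2.52%. Dlg1-206 held 54.0, 51.5, 49.4 and 54.8% of the reads with vehicle and 47.5, 45.8, 49.3 and 45.2% with MCH. The gap between the groups was under 0.1 percentage points, set by replicate 3 of each. The mean share was lower with MCH by 6.08 percentage points in replicates 1 and 2 and by 4.84 in replicates 3 and 4. Over all wells it was 52.4 ± 2.45% and 46.9 ± 1.87%, with a two-sided exact permutation *P* of 0.0286, which did not pass after adjustment over the 10 leading transcripts (0.286). Dlg1-201, which shares the first 12 codons of Dlg1-206, held 14.1 ± 2.65% and 18.7 ± 2.27%.

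*Dlgap1* was spread over more main transcripts than the other scaffold genes, with 4 above 10% of its reads. Dlgap1-211, which ends in the tail that Shank binds, held 47.4 ± 2.13% with vehicle and 50.8 ± 3.43% with MCH. Dlgap1-210, which ends in other codons, held 14.1 ± 2.35% and 16.0 ± 1.89%. Dlgap1-207 held 10.3, 15.8, 15.3 and 15.4% with vehicle and 11.9, 9.70, 7.35 and 5.94% with MCH. Only replicate 1 with vehicle lay within the range of the MCH-treated wells, and the two-sided exact permutation *P* was 0.0571 (adjusted 0.263 over the 23 transcripts). By the quasi-likelihood test in edgeR, the log2 fold change was 0.18 for Dlgap1-211 (unadjusted *P* of 0.00306) and 0.28 for Dlgap1-201 (unadjusted *P* of 0.0146). Neither passed after Benjamini–Hochberg adjustment in this edgeR test (adjusted *P* of 0.707 and 0.984). For Dlgap1-207 it was −0.59, with an unadjusted *P* of 0.0527 by the same edgeR test.

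In 5 of the other 7 scaffold genes 1 transcript held 73.7 to 88.2% of the reads with vehicle, and shares overlapped between treatments in all 7. Dlgap3-201 held 88.2 ± 1.82% of the reads of *Dlgap3* with vehicle and 88.2 ± 1.51% with MCH, Dlgap2-203 held 78.4 ± 3.33% and 78.8 ± 3.39%, and Dlg2-204 held 77.0 ± 4.23% and 78.3 ± 1.55%. Shank3-201 (74.6 ± 7.67% and 75.9 ± 6.09%) and Shank1-203 (73.7 ± 4.07% and 74.3 ± 4.08%) led their genes in the same way. Shank2-202 (44.7 ± 2.43% and 47.2 ± 3.92%) and Shank2-205 (38.7 ± 3.39% and 34.7 ± 2.66%) start at different codons and shared most of *Shank2*. Dlg3-201 (51.3 ± 2.80% and 52.7 ± 5.10%) and Dlg3-202 (42.2 ± 2.27% and 40.2 ± 1.86%), both with the cysteine codons shown above, shared *Dlg3*.

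**Figure D5:**
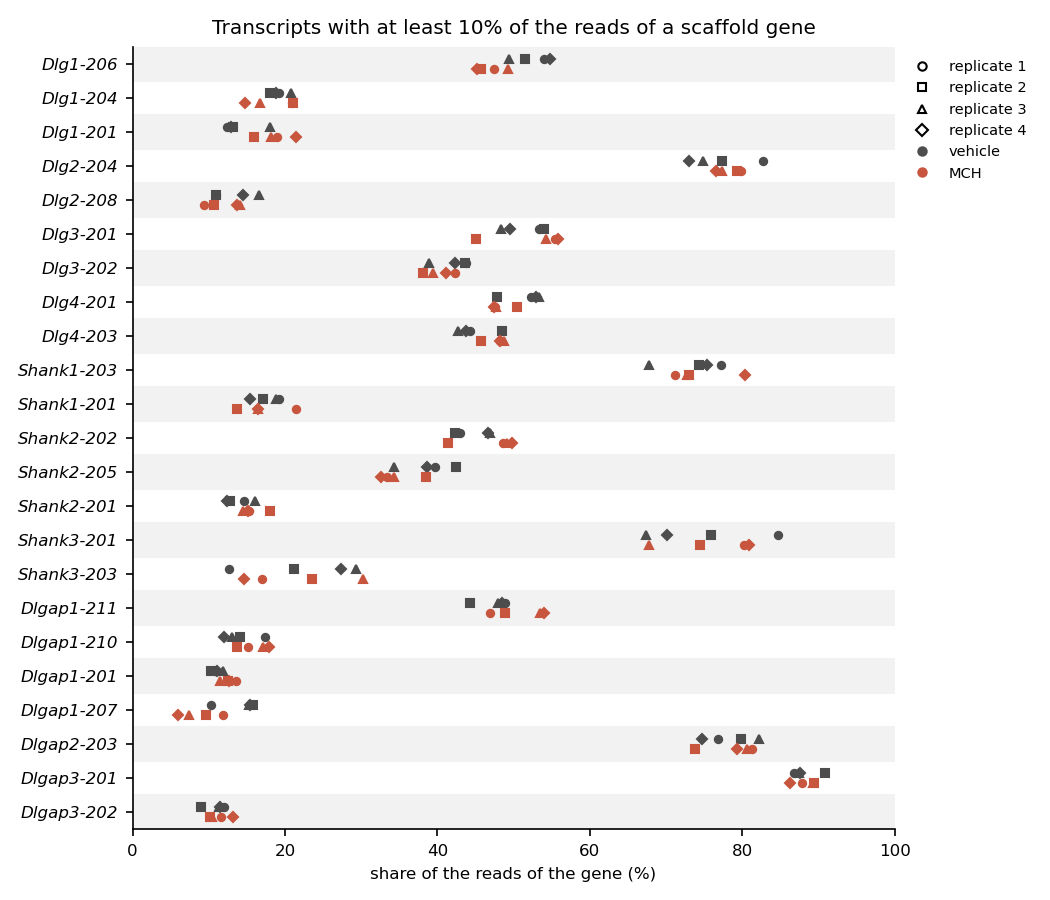
Share of the reads of a scaffold gene held by each transcript with at least 10% on average, with 1 point per well (grey, vehicle; red, MCH; symbol, replicate number). Dlg1-206 is the only one whose treatments do not overlap (49.4 to 54.8% with vehicle and 45.2 to 49.3% with MCH).

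Genes that work with the scaffolds were read from 4 lists, whose counts stand beside the 0.234% of all genes that passed and the median of −0.0027 over all genes. Of 18 partners and regulators of PSD-95, 15 had a log2 fold change above 0 and 0 passed, with a median of 0.066. They ranged from −0.059 for *Lin7a*, an adaptor of MAGUK complexes, to 0.17 for *Lrrc7* (densin). Of 15 partners of Shank and SAPAP proteins, *Homer1* passed (lower), and the median was 0.010. The highest was *Nlgn1*, an adhesion molecule bound by PSD-95, at 0.14.

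Of 12 genes for palmitoylation and turnover of PSD-95, 10 lay below 0 and 0 passed, with a median of −0.042. The lowest was *Zdhhc8*, a palmitoyl transferase, at −0.12, and the highest *Ube3a*, a ubiquitin ligase, at 0.077. Of 14 receptor and channel genes anchored at the density, 8 lay above 0 and 0 passed, with a median of 0.029. They ranged from −0.24 for *Kcna4*, a potassium channel subunit, to 0.35 for *Grin2b*, an NMDA receptor subunit, whose interval was wide (0.048 to 0.65).

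With the batch block, 7 of the 58 genes counted in the 4 lists passed, beside 4.46% of all genes. By list they were 0 of 18 for partners of PSD-95, 3 of 15 for partners of Shank and SAPAP proteins, 1 of 12 for palmitoylation and turnover and 3 of 13 for receptors and channels. The neuroligin genes *Nlgn1* and *Nlgn3* were placed in the Shank and SAPAP list, although PSD-95 binds *Nlgn1*. The counts of the first lists therefore depend on that placement. *Nlgn1* (0.14), *Nlgn3* (0.12) and *Gria2* (0.11), an AMPA receptor subunit, were higher with MCH. *Homer1* (−0.29), *Kcna4* (−0.24), *Kcnj4* (−0.12), an inward rectifier channel, and *Zdhhc3* (−0.11), a palmitoyl transferase, were lower. With the replicate block, *Gria2* and *Zdhhc3* did not pass (adjusted *P* of 0.0670 and 0.0680 by the quasi-likelihood test in edgeR with Benjamini–Hochberg adjustment).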

How the data were processed

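Bulk poly-A RNA-seq of 8 wells was analysed, 4 with vehicle and 4 with MCH for 4 h, grouped by the treatment in the sample labels. A model entry in the labels reads Alzheimer's disease, but the genotype entry is wild type. Reads were quantified by the authors on GRCm38 with salmon, run through nf-core/rnaseq. The deposited gene table gives estimated counts, unscaled for depth or length, of which 9.13% are not whole numbers. The deposited transcript tables give estimated counts, effective lengths and TPM, the last scaled by the authors' software for depth and length. Library totals were 26083936 to 31844861, and 3 counts were taken as the floor of detection, which covers counting error only. GENCODE vM21 named 98.8% of the gene identifiers, and the release behind the files is not given in the sources used here.

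Counts were rounded and fitted in R 4.3.3 with edgeR 4.0.16 (TMM factors, filterByExpr with a count minimum of 10 and a total minimum of 15, robust quasi-likelihood test without a block, since the study's methods name none for this test), with Benjamini–Hochberg adjustment over 14962 genes or 33527 transcripts and a threshold of 0.05. The study's methods name DESeq2, which served here as an alternative (version 1.42.0), beside limma 3.58.1 (voom), RLE factors, no filter, a length offset, blocks and leaving out each well. Single values were tested by two-sided exact permutation. The fits were tested on a single set of simulated gene counts, in which 200 genes changed by 1 on the log2 scale. Of these, 147 were found without a block, 181 with the batch block and 179 with the replicate block. False calls made up 0, 8.12 and 10.1% of the genes called, above the threshold with either block and not without a block. The sides were set in advance in the simulation but read from the counts in the data. The false share with the batch block therefore does not cover that choice. Changes as small as those of the scaffold genes were not simulated. Same-numbered wells of the treatments correlated at 0.445 to 0.545 in their deviations from the treatment means. Wells of other numbers correlated at 0.475 to 0.521 within a side and at −0.548 to −0.438 across sides. The values thus show the sides, but no closer match of wells that share a number. The pairs and the replicate block take the numbers as given, since no source says what a number marks.

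The named genes are the 10 scaffold genes, their transcripts with at least 10% of the reads of the gene, and, of each partner list, the genes that passed and the lowest and highest fold change, with *Arc*, *Homer1* and *Fos* for scale. Genes that passed with the batch block, the marker genes named and the transcript Dlg4-211 were added after their values were seen. The genes, lists and tests were chosen with earlier results of these data known. For 1 gene of the receptor list the result is not reported here, and it is left out of the list counts with the batch block.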

Additional observations from a re-analysis of the deposited data

Results flagged for a closer look

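Dixon's criterion for a well far from the others of its group at the 95% level was applied to 40 groups of 4 wells, and 3 passed it. Chance alone passes about 1 in 20 groups. All 3 are transcript shares in replicate 2 of the MCH-treated wells. The share of Dlg3-201 was 45.1% there against 54.3 to 55.9% in the other MCH-treated wells. Dlg4-201 held 50.4% against 47.4 to 47.7%. Shank2-202 held 41.4% against 48.7 to 49.8%. No CPM value of a scaffold gene passed the criterion.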

How the results depend on the processing

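No scaffold gene passed under any of the 18 fits, whose lowest adjusted *P* was 0.0627 (edgeR, batch block). Of 170 values from the other fits, 162 kept the direction and 8 changed sign, 7 of them on leaving out 1 well. With the length offset *Dlg4* changed sign, from −0.031 to 0.056. Leaving out each well in turn moved *Shank1* between 0.0022 and 0.18, the widest range, *Dlg1* between −0.088 and 0.0079, *Shank3* between −0.081 and 0.0024, *Dlgap2* between −0.0043 and 0.16 and *Dlgap3* between −0.050 and 0.020. Among all genes, 35 passed without a block, 170 with DESeq2, 7 with the length offset, 596 with the replicate block, 668 with the batch block and 4 to 29 on leaving out a well. It was 29 without vehicle replicate 3 and 26 without MCH replicate 1, and 4 to 12 without vehicle replicate 1, 2 or 4 or MCH replicate 2, 3 or 4. In fits added after seeing the data, 596 passed with DESeq2 and the batch block, and 555 with the batch block without MCH replicate 1. Of the transcripts, 0 passed without a block, 6 with the batch block and 0 to 1 on leaving out a well. Of the partner and marker lists, 1 gene passed without a block, 10 with the batch block and 9 with the replicate block. Counting transcripts of at least 1000 bases moved 2 scaffold genes in the order of levels. The causes were not tested. The replicate block changed no call on the scaffold genes.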
